A study of Rattus norvegicus with 10 samples.

Results

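Acod1, Plek, Nos2, Ptgs2, Lcn2 and Sod2 are 6 genes of the inflammatory response, taken by their symbols in the deposited gene table from the 23487 genes counted in cultured rat oligodendrocytes (OLs) and oligodendrocyte precursor cells (OPCs). Acod1 and Plek were selected on their measured fall in OPCs when miR-145 was inhibited, so that contrast is given here as a description and without a test for all 6 genes. Each symbol stood on 1 gene identifier.

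RNA was sequenced from 10 libraries, 2 for each of 5 groups, of primary cells grown from the cortices of newborn Sprague-Dawley rat pups. OPCs had been shaken off mixed glial cultures and freed of other cells by letting those attach to plates, so the libraries can hold RNA of astrocytes and microglia. Differentiated OLs were collected on day 5 after transfection with 30 nM of a miR-145 mimic (miR-145 OLs), of miR-145 and miR-219 mimics together (miR-145+miR-219 OLs) or of a control mimic (miR-ctl OLs), and OPCs were collected 24 h after 30 nM of a miR-145 inhibitor (anti-miR-145 OPCs) or of a control inhibitor (anti-miR-ctl OPCs). All groups were thus transfected, and no group was left without an oligonucleotide. For miR-145 overexpression and its control, the paper's RNA sequencing methods name lentivirus instead, a conflict that the sources do not settle. The tag that names the treatment lists miR-219 for the miR-145 OL libraries as well, but their titles and descriptions name miR-145 alone, and the groups follow those. The study defines its replicates as biological, for primary cells as separate enriched cultures, but does not say whether libraries with the same replicate number in different groups came from the same culture.

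These genes sit at different points of innate immune activation. Signals from pattern recognition receptors and cytokines such as IL-1 and TNF free the NF-kB transcription factors, which together with C/EBP, STAT and IRF factors switch on enzymes and secreted proteins. In the brain the main source of such a response is microglia, the resident macrophages, followed by reactive astrocytes. Acod1 is the mitochondrial enzyme that turns the citrate cycle intermediate cis-aconitate into itaconate. Nos2 is the inducible nitric oxide synthase, and Ptgs2 (cyclooxygenase-2) commits arachidonic acid to prostaglandins. Lcn2 is lipocalin-2, a secreted protein that binds bacterial iron carriers and a known product of reactive astrocytes. Sod2 is the mitochondrial manganese superoxide dismutase, and Plek is pleckstrin, a substrate of protein kinase C in cells of the blood lineage.

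The RefSeq promoter table (build GRCr8, 300 bases around the annotated start of a gene) held 4 of the 6 genes and had no entry for Plek or Nos2. Windows with a match to an element of inflammatory factors are printed here, with the matches in capitals. Whether the matches bear on the levels of these genes was not tested.
Ptgs2, chr13:64713813-64714112, plus strand: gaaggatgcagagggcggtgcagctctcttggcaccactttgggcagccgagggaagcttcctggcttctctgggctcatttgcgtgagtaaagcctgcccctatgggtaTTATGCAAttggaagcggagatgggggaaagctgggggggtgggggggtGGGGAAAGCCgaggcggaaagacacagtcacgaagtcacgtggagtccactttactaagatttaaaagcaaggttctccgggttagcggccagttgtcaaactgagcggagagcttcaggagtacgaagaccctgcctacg
Lcn2, chr3:36081731-36082030, minus strand: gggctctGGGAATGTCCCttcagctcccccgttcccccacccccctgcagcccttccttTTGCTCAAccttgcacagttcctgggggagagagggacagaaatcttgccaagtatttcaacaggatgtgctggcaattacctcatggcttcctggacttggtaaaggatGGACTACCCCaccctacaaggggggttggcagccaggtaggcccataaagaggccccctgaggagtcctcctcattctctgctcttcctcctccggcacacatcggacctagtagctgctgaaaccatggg
Sod2, chr1:50050119-50050418, minus strand: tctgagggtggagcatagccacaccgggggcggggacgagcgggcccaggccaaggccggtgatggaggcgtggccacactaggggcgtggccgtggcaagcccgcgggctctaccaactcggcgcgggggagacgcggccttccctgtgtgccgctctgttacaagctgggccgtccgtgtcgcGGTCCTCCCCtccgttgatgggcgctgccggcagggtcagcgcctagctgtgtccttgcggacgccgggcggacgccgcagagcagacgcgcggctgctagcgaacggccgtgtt
Both strands were searched for GGGANNNNCC (called kB here), GGGGNNNNCC (kB variant), GAAANNGAAA (an interferon-stimulated response element), TGANTCA (AP-1) and TTGCNNAA (C/EBP), and matches may overlap. Of all 33469 promoter windows in the table, 19.3% held kB, 18.2% the kB variant, 3.92% the interferon element, 7.33% AP-1 and 10.6% C/EBP. Lcn2 had 4 matches, of which the pair of kB matches are the same site read on both strands, at -243 to -233 from the start, with C/EBP at -191 to -184 and the kB variant at -81 to -72. Ptgs2 had C/EBP at -140 to -133 and the kB variant at -91 to -82, and Sod2 had the kB variant at -65 to -56. The Acod1 window (chr15:86286289-86286588, plus strand) held 0 matches, which says only that these letters are not in that window.

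Library totals ran from 33505706 to 42684206 estimated counts, and levels are given as CPM, counts scaled by TMM to a common library size over the 10 libraries. Summed markers followed the labels: 6 OPC markers summed to 5832 to 8000.4 CPM in the OPC libraries and 2389 to 3082 CPM in the OL libraries, and 9 markers of maturing OLs to 1103 to 1318 CPM and 15504 to 34122 CPM. Markers of other cells were present. The sum of 14 microglial markers lay between 576 and 1414 CPM in every group, and that of 9 astrocyte markers between 554 and 798 CPM in OPCs and between 5899 and 14488 CPM in OLs. In such bulk RNA, fewer cells of a type and less RNA per cell cannot be told apart.

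The 6 genes had their joint high point in anti-miR-ctl OPCs, except Lcn2, which was highest in miR-ctl OLs. Acod1 was measured at 46.8 and 41.7 CPM in anti-miR-ctl OPCs, 0.880 and 0.736 CPM in anti-miR-145 OPCs, 0.0251 and 0.153 CPM in miR-ctl OLs, 0.115 and 0.101 CPM in miR-145 OLs, and 0 and 0.112 CPM in miR-145+miR-219 OLs. Both OPC groups lay above all OL libraries, in which it rested on at most 5 estimated counts. Plek stood at 136 and 133 CPM in anti-miR-ctl OPCs, 31.0 and 20.4 CPM in anti-miR-145 OPCs, 1.73 and 1.47 CPM in miR-ctl OLs, 2.36 and 6.62 CPM in miR-145 OLs, and 2.38 and 4.10 CPM in miR-145+miR-219 OLs. Again the OPC groups lay above every OL library, and the miR-145 and miR-145+miR-219 OL libraries overlapped.

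Nos2 was at 10.8 and 8.92 CPM in anti-miR-ctl OPCs, 0.276 and 0.391 CPM in anti-miR-145 OPCs, 0.452 and 0.981 CPM in miR-ctl OLs, 0.259 and 0.758 CPM in miR-145 OLs, and 0.147 and 0.618 CPM in miR-145+miR-219 OLs. Only anti-miR-ctl OPCs stood apart from the rest, and anti-miR-145 OPCs overlapped with miR-145 and miR-145+miR-219 OLs. Ptgs2 was at 11.8 and 9.30 CPM in anti-miR-ctl OPCs, 2.31 and 2.28 CPM in anti-miR-145 OPCs, 2.46 and 1.01 CPM in miR-ctl OLs, 0.316 and 0.480 CPM in miR-145 OLs, and 0.0737 and 0.140 CPM in miR-145+miR-219 OLs. Its group means descended from 10.5 CPM through 2.29, 1.74 and 0.398 CPM to 0.107 CPM in that order, and of the neighbours in the order only anti-miR-145 OPCs and miR-ctl OLs overlapped.

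Lcn2 had a different order of groups. It stood at 396 and 156 CPM in miR-ctl OLs, 13.8 and 73.1 CPM in miR-145 OLs, 8.54 and 28.3 CPM in miR-145+miR-219 OLs, 29.5 and 32 CPM in anti-miR-ctl OPCs, and 0.452 and 0.207 CPM in anti-miR-145 OPCs. The miR-145 OLs overlapped with the miR-145+miR-219 OLs and with anti-miR-ctl OPCs, while miR-ctl OLs lay above and anti-miR-145 OPCs below all others. Sod2, the gene with the narrowest range, was at 402 and 394 CPM in anti-miR-ctl OPCs, 168 and 135 CPM in miR-ctl OLs, 133 and 126 CPM in miR-145 OLs, 127 and 112 CPM in miR-145+miR-219 OLs, and 95.1 and 79.8 CPM in anti-miR-145 OPCs. Here too the miR-145 and miR-145+miR-219 OLs overlapped, and the other neighbours in the order did not.

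**Figure D1:**
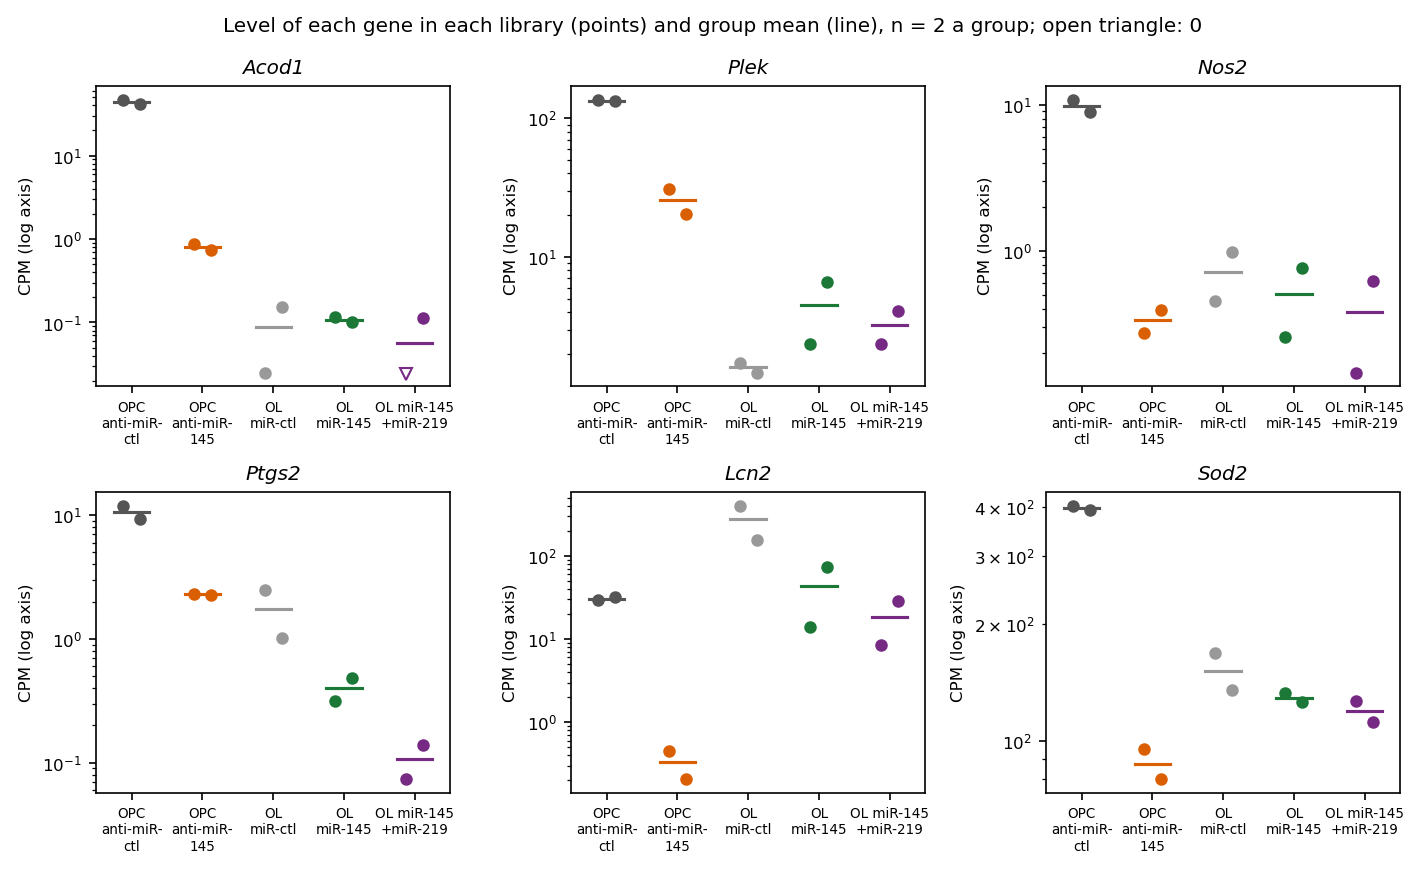
Level of Acod1, Plek, Nos2, Ptgs2, Lcn2 and Sod2 in CPM (log axis, a different range in each panel) in the 5 groups on the horizontal axis, with a point for each library, a line at the group mean (n = 2) and an open triangle for a library at 0. All but Lcn2 were highest in anti-miR-ctl OPCs, and Lcn2 reached 396 CPM in a miR-ctl OL library.

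In OPCs, the comparison asked what changed when miR-145 was inhibited. All 6 genes were lower in anti-miR-145 OPCs than in anti-miR-ctl OPCs, and the libraries of the groups overlapped for none of them, beside 32.7% of 15496 genes tested that were lower without overlap. Since this contrast chose Acod1 and Plek, nothing is read from that share. The sizes differed widely: Lcn2 fell by 6.57 on the log2 scale (standard error, SE, 0.231), Acod1 had a log2 fold change of -5.79 (SE 0.151), at 1.83% of its control level, and Nos2 of -4.88 (SE 0.231). The other three were closer together, with log2 fold changes of -2.40 (SE 0.191) for Plek, -2.22 (SE 0.17) for Ptgs2 and -2.20 (SE 0.112) for Sod2. Without anti-miR-145 replicate 1 the value of Lcn2 was -7.22 and without replicate 2 it was -6.07, since the low level rested on 18 and 9 counts.

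The 14 microglial markers did not fall as a list with the 6 genes. Of 19 other microglia and myeloid signalling genes, 17 were called lower and 0 higher. The summed level of the markers was 1414 and 1133 CPM in anti-miR-145 OPCs and 1184 and 1113 CPM in anti-miR-ctl OPCs. Of the 14, 9 were called higher and 4 lower, beside 12.1% and 16% of all genes. Those lower were Aif1 (log2 fold change -1.40), Itgam (-1.58), Tyrobp (-0.96) and Csf1r (-0.41), and among those higher were the complement genes C1qa (1.14), C1qb (1.34) and C1qc (1.31), Trem2 (1.67) and the fractalkine receptor Cx3cr1 (1.83). None of the 14 was at 0 in either OPC group, and Tmem119, a marker of microglia in the adult brain, was at 10.7 and 9.54 CPM against 12.3 and 11.5 CPM. The astrocyte sum was 554 and 606 CPM in anti-miR-145 OPCs and 798 and 776 CPM in anti-miR-ctl OPCs, with 2 of 9 markers called higher and 4 lower. These markers did not move together: Slc1a3 was at a mean of 187 CPM in anti-miR-145 OPCs against 387 CPM, and Gfap at 46.5 CPM against 7.96 CPM. The part of either cell type in the fall of the 6 genes was not tested.

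Lists of genes around the 6 members were drawn up by function and held 146 genes. Of the 133 tested in OPCs, 18 were called higher and 61 lower by edgeR with adjusted p under 0.05, where 28.1% of all 15496 genes were called, 12.1% higher and 16% lower. Each list is to be read against these shares, as a description only. The lists were chosen with earlier results of these data known, and this contrast also chose Acod1 and Plek. The list of microglia and myeloid signalling genes around Plek had 0 of 19 higher and 17 lower (median log2 fold change -1.17, against 0.01 over all genes). The adaptor Fyb1 fell by 2.20 on the log2 scale (SE 0.142, adjusted p = 0.000111) and the Src-family kinase Lyn by 1.47 (SE 0.112, adjusted p = 0.000182). Of 24 NF-kB factors, kinases and feedback genes, 16 were called lower and 2 higher (median -0.54). The lower ones were led by the NF-kB targets Birc3 (-3.43, SE 0.18) and Tnfaip3 (-1.76, SE 0.12), which encodes the feedback inhibitor A20, while the NF-kB subunit Rela (0.38, SE 0.101) and the receptor kinase Irak1 (0.38, SE 0.077) were the 2 higher.

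Of 12 STAT, IRF and C/EBP factors, 7 were called lower and 3 higher (median -0.52). The interferon-induced factors Irf7 and Irf9 fell by 2.25 (SE 0.15) and 1.44 (SE 0.099) on the log2 scale, whereas Irf8, a factor of the myeloid lineage, rose by 1.26 (SE 0.146) and Stat3 by 0.68 (SE 0.081). Of 19 metabolic neighbours of Acod1, genes of the citrate cycle and citrate transport, 1 was called lower and 2 higher (median 0.11), no more than over all genes. The lower one was fumarase, Fh (-0.68, SE 0.103), and the higher ones were the citrate carrier Slc25a1 (0.58, SE 0.091) and Idh3a (0.28, SE 0.079).

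Around Nos2, 3 of 12 nitric oxide and arginine genes were called lower and 3 higher (median -0.15). Gch1, which starts the synthesis of the cofactor tetrahydrobiopterin that Nos2 needs, fell by 1.97 (SE 0.266) and the arginine transporter Slc7a2 by 1.90 (SE 0.22), while Ddah1, which clears an inhibitor of nitric oxide synthases, rose by 0.60 (SE 0.086) and the polyamine enzyme Odc1 by 0.30 (SE 0.08). Around Ptgs2, 5 of 18 prostaglandin and leukotriene genes were called lower and 2 higher (median 0.04). The prostaglandin E2 receptors Ptger2 (-2.48, SE 0.216) and Ptger4 (-1.87, SE 0.219) were lower, and the leukotriene genes Alox5ap (1.47, SE 0.219) and Ltc4s were higher, the latter from a mean of 0.0231 CPM to 0.911 CPM.

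Of 11 partners of lipocalin-2 and acute-phase genes, 6 were called lower and 1 higher (median -0.64). Mmp9, the gelatinase that lipocalin-2 binds, fell by 4.68 on the log2 scale (SE 0.157), from a mean of 15 CPM to 0.588 CPM, and the copper carrier Cp fell by 1.01 (SE 0.097), while the inhibitor of metalloproteinases Timp1 rose by 2.23 (SE 0.12). Of 18 genes of superoxide and peroxide handling, 6 were called lower and 5 higher (median 0.12). Here the subunits of the phagocyte NADPH oxidase that makes superoxide, Ncf1 (-1.96, SE 0.178) and Cybb (-1.13, SE 0.086), were lower, and the peroxide-removing enzymes Prdx6 (1.39, SE 0.115) and Gpx4 (0.59, SE 0.099) were higher.

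**Figure D2:**
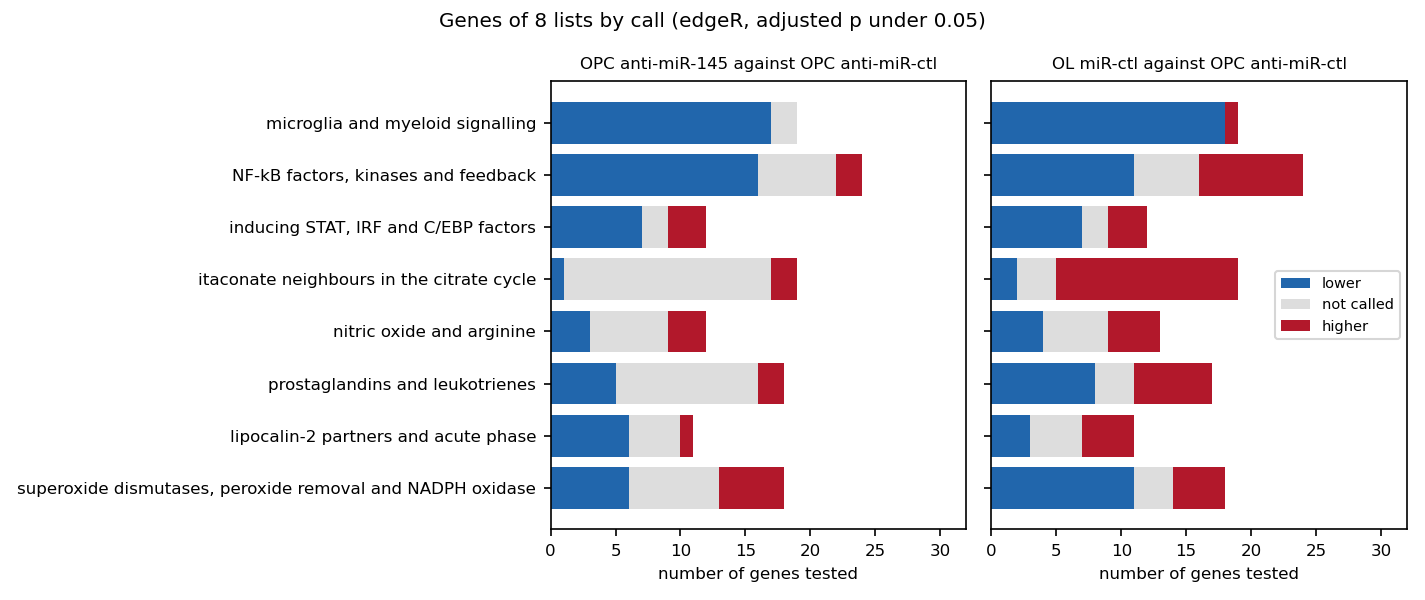
Number of genes tested in each of 8 functional lists (horizontal axis), split by edgeR call into lower (blue), not called (grey) and higher (red), for anti-miR-145 against anti-miR-ctl OPCs on the left and miR-ctl OLs against anti-miR-ctl OPCs on the right. In the left panel 17 of 19 microglia and myeloid signalling genes were called lower, beside 16% of all genes. In the citrate cycle list it was 1 of 19. The lists were chosen with earlier results of these data known.

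Control cells were compared across stages with miR-ctl OLs against anti-miR-ctl OPCs, where the stage, the kind of control oligonucleotide and the time after transfection cannot be told apart. The anti-miR-ctl libraries are those of the inhibitor comparison. For Acod1 and Plek, whose choice rested partly on these libraries, only values are given: the log2 fold change was -9.01 (SE 0.338) for Acod1, with 1 and 5 counts in the OL libraries, and -6.39 (SE 0.115) for Plek. Of the other four, Nos2, Ptgs2 and Sod2 were lower in OLs and Lcn2 was higher. These 4 genes were called by edgeR, beside 57.5% of 15721 genes, and had no overlap between the groups, beside 81.8% of genes without overlap, so a call or a gap is common here.

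Nos2 was lower in miR-ctl OLs by 3.82 on the log2 scale (log2 fold change -3.82, SE 0.361, edgeR adjusted p = 0.000759), Ptgs2 by 2.60 (log2 fold change -2.60, SE 0.408, adjusted p = 0.00424) and Sod2 by 1.41 (log2 fold change -1.41, SE 0.123, adjusted p = 0.000581). Lcn2 was 8.89-fold higher in OLs (log2 fold change 3.15, SE 0.455, adjusted p = 0.00318), both OL libraries lying above both OPC libraries. The spread between the miR-ctl OL libraries moved the size of these values. Without miR-ctl OL replicate 1, the log2 fold change was 2.35 for Lcn2, -3.38 for Ptgs2, -3.32 for Nos2 and -8.14 for Acod1, and without replicate 2 it was 3.68, -2.11, -4.44 and -10.62.

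Of all genes, 28.8% were called higher in OLs and 28.7% lower. Between these groups 8 of 9 astrocyte markers were called higher in OLs and 0 lower, while 2 of 14 microglial markers were called higher and 6 lower. Gfap, the intermediate filament of astrocytes, was higher by 9.12 on the log2 scale, and Itgam lower (log2 fold change -3.41). The part of astrocytes in the level of Lcn2 and of microglia in the others was not tested. Among 19 microglia and myeloid signalling genes 18 were called lower in OLs (median -2.28), with Fyb1 at -4.71 (SE 0.114). The pleckstrin relative Plek2 was the 1 higher (0.81, SE 0.24, from 1.39 to 2.45 CPM).

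Of the 11 neighbours of Lcn2, 4 were called higher in OLs and 3 lower (median -0.15), close to the shares over all genes. Cp (1.92, SE 0.165) and Timp1 (1.64, SE 0.124) were higher, as Lcn2 was, and complement C3 (-4.95, SE 0.218) and Mmp9 (-3.73, SE 0.353) were lower. Of the NF-kB list, 8 of 24 genes were called higher and 11 lower (median -0.24), with the inhibitor-like cofactor Bcl3 at 1.83 (SE 0.128) and Nfkbib at 1.40 (SE 0.13) against Nfkbiz at -3.13 (SE 0.204) and Tnfaip3 at -2.12 (SE 0.129). Irf7 was lower by far (log2 fold change -8.79, SE 0.171) within a list of 12 factors of which 7 were called lower and 3 higher (median -1.02).

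Of 13 nitric oxide and arginine genes 4 were called higher and 4 lower in OLs (median 0.35), again close to those shares, the arginine-making enzymes Ass1 (3.65, SE 0.39) and Asl (1.03, SE 0.09) being higher and Gch1 (-3.20, SE 0.217) and Ddah1 (-1.12, SE 0.201) lower. Of 17 prostaglandin and leukotriene genes 6 were called higher and 8 lower (median -0.19). Ptgds, the prostaglandin D synthase of the brain, was higher (7.93, SE 0.389, from 0.558 to 139.5 CPM), and the phospholipase Pla2g4a, which releases arachidonic acid (-1.68, SE 0.158), and Ptger2 (-3.74, SE 0.238) were lower.

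Around Acod1 and Sod2, 14 of 19 citrate cycle genes were called higher in OLs and 2 lower (median 0.34), the lower ones being Fh (-1.37, SE 0.12) and Idh2 (-0.71, SE 0.093). Of 18 genes of superoxide and peroxide handling 4 were called higher and 11 lower (median -0.41). Catalase, Cat (1.71, SE 0.098), and Gpx4 (1.08, SE 0.071) were higher, and the oxidase subunits Ncf1 (-3.55, SE 0.161) and Ncf4 (-3.20, SE 0.18) lower.

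In OLs, the mimic comparisons asked how the cells changed with miR-145, with miR-145 and miR-219 together, and with miR-219 added to miR-145. Acod1 was too low to test in any of them, and edgeR called 0 of the 5 other genes in each. Against miR-ctl, Ptgs2 and Lcn2 had lower values and Plek higher values in miR-145 OLs, all without overlap, but none passed the adjustment in edgeR, whose fit takes no account of the replicate number. With that number as a block, edgeR called Ptgs2, Lcn2 and Plek among many other genes, as the closing section describes. No source says that the number marks a shared culture. For Ptgs2 the log2 fold change was -2.11 (SE 0.568, unadjusted p = 0.0119 and adjusted p = 0.228 by edgeR), and for Lcn2 it was -2.66 (SE 0.849, unadjusted p = 0.0232 and adjusted p = 0.299 by edgeR). For Plek it was 1.49 (SE 0.527, unadjusted p = 0.0333 and adjusted p = 0.335 by edgeR). The paper counts Plek among the genes upregulated with miR-145, from its own DESeq2 fit of this RNA sequencing, and also checked it by qRT-PCR. DESeq2 as run here did not call Plek in miR-145 OLs against miR-ctl OLs. The reason for this difference was not tested.

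Those 3 of 5 genes with an unadjusted p under 0.05 stood beside 13.4% of 15461 genes, and the 4 of 5 without overlap (Sod2, log2 fold change -0.22, SE 0.14, is the fourth) beside 47.3%. Of all genes edgeR called 0, or 0%, after adjustment, and DESeq2 called 4.2%, with 0 of the 5 among them. Nos2 had a log2 fold change of -0.46 (SE 0.676) with overlapping libraries. Fits that dropped a single library gave values from 0.56 to 2.05 for Plek, from -2.61 to -1.32 for Ptgs2 and from -4.32 to -1.83 for Lcn2.

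The OL library with the highest Plek was also that with the highest microglial sum. Within each mimic group the replicate with the higher sum had the higher Plek, while in miR-ctl OLs it had the lower. In miR-145 OL replicate 2 Plek was at 6.62 CPM and the microglial sum at 1392 CPM, against 2.36 and 625 CPM in replicate 1. In miR-145+miR-219 OL replicate 2 Plek was at 4.10 CPM and the sum at 934 CPM, against 2.38 and 581 CPM in replicate 1. In miR-ctl OLs Plek was at 1.73 CPM beside a sum of 576 CPM in replicate 1, and at 1.47 CPM beside 811 CPM in replicate 2. Cx3cr1 was at 12.4 and 24.8 CPM in miR-145 OLs against 4.95 and 5 CPM, and 5 of 14 microglial markers were higher without overlap and 0 lower, beside 22.9% and 24.4% of all genes. Astrocyte markers summed to 14488 and 9884 CPM in miR-145 OLs against 6908 and 5899 CPM, while Lcn2 had lower values there. The sum of 5 fibroblast or mural markers was 10.5 and 54.2 CPM against 3.77 and 4.38 CPM, also highest in replicate 2. The part of these cell types in these values was not tested.

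**Figure D3:**
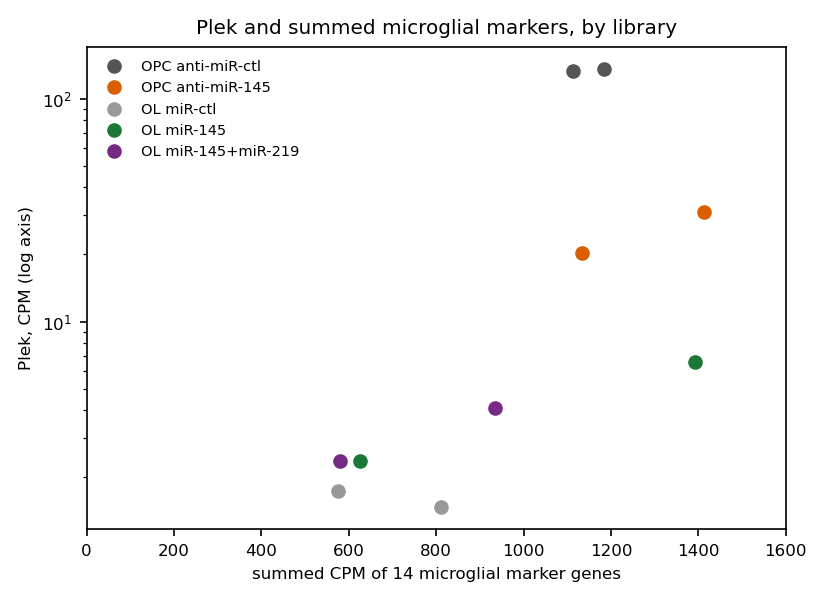
Plek level (vertical log axis, CPM) against the summed CPM of 14 microglial marker genes (horizontal axis) in each of the 10 libraries, coloured by group. The OPC libraries share the range of microglial sums from 1113 to 1414 CPM, with Plek between 20.4 and 31.0 CPM under anti-miR-145 and at 133 and 136 CPM under anti-miR-ctl, and the OL library with the highest Plek, 6.62 CPM, is that with the highest sum, 1392 CPM.

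With miR-145 and miR-219 together, compared with the same miR-ctl libraries, the values lay further from control for Ptgs2 and Lcn2. Ptgs2 had a log2 fold change of -4.00 (SE 0.691, unadjusted p = 0.00217 and adjusted p = 0.789 by edgeR), at 6.17% of its miR-ctl mean, with 3 and 5 counts against 98 and 33. Lcn2 had -3.91 (SE 0.757, unadjusted p = 0.00361 and adjusted p = 0.8 by edgeR), at 6.67%. Plek had 1.02 (SE 0.357, unadjusted p = 0.0359 and adjusted p = 0.801 by edgeR), and its 2 libraries lay above both controls. Nos2 had -0.90 (SE 0.785) with overlap, and Sod2 had -0.33 (SE 0.15) without. Dropping a single library moved Lcn2 between -5.01 and -3.08, Ptgs2 between -4.51 and -3.21, Plek between 0.57 and 1.36 and Nos2 between -2.24 and -0.19.

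Here too 3 of 5 genes had an unadjusted p under 0.05, beside 6.19% of 15436 genes, and 4 of 5 did not overlap, beside 36.8%. While edgeR called 0 genes in all (0%), DESeq2 called 0.687% of them, and Ptgs2 (log2 fold change -4.03, DESeq2 adjusted p = 0.00188) and Lcn2 (-3.90, DESeq2 adjusted p = 0.0206) were among these. The calls of these 2 genes thus differ between the tools. The microglial sum was 581 and 934 CPM and the astrocyte sum 12021 and 7170.2 CPM in these libraries.

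Between the mimic groups themselves, Ptgs2 was the 1 gene of the 5 whose libraries did not overlap. It rested on 3 and 5 counts in miR-145+miR-219 OLs and 11 and 19 in miR-145 OLs (log2 fold change -1.90, SE 0.586, unadjusted p = 0.0243 and adjusted p = 1 by edgeR). Of 15501 genes, 24.8% did not overlap and 1.47% had an unadjusted p under 0.05. The log2 fold changes of Lcn2 (-1.26, SE 0.934), Plek (-0.49, SE 0.574), Nos2 (-0.45, SE 0.869) and Sod2 (-0.12, SE 0.111) came with overlapping libraries. For all genes edgeR called 0, or 0%, and DESeq2 0.0581%, none of the 5 among them. With the replicate number as a block, edgeR called Lcn2 here among other genes, as the closing section describes.

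**Figure D4:**
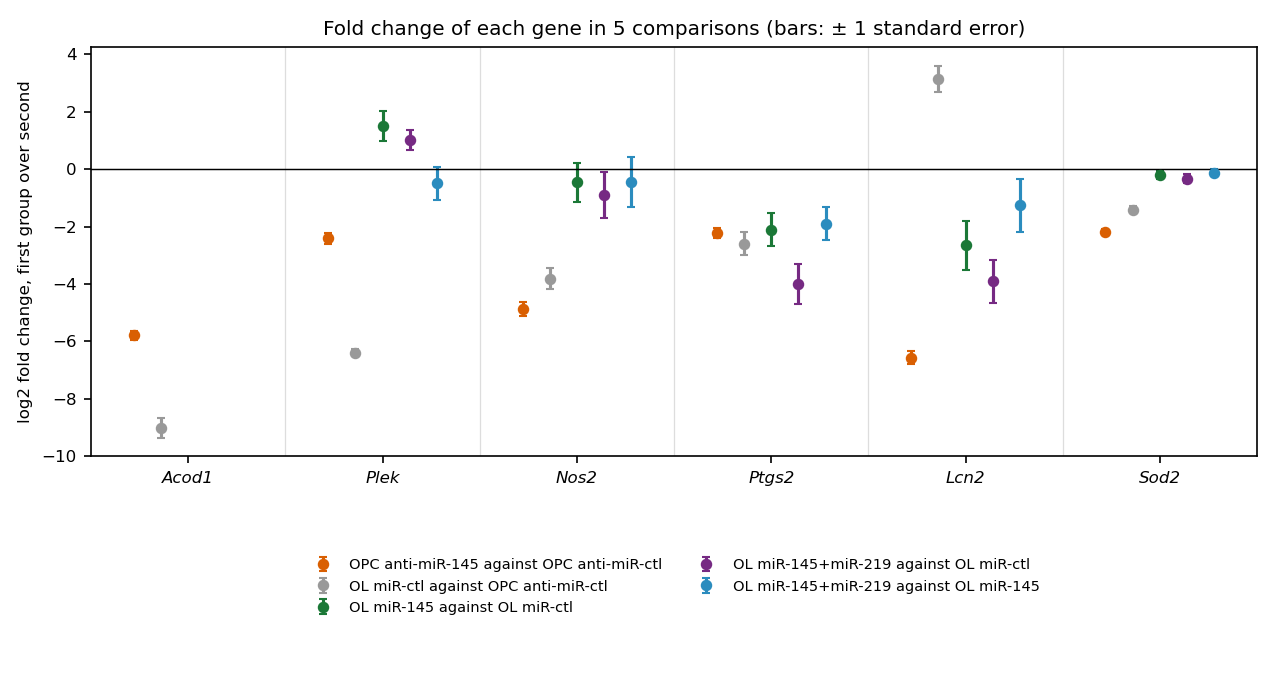
Log2 fold change of each gene (vertical axis, first group over second, bars ± 1 SE from edgeR) in the 5 comparisons, marked by colour. In OPCs given anti-miR-145 (orange) all 6 lie between -6.57 and -2.20, in the stage comparison (grey) only Lcn2 lies above 0, at 3.15, and Acod1 has no value in the 3 OL comparisons because it was too low to test.

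In the OL comparisons 0 genes of the 8 functional lists were called by edgeR. An unadjusted p under 0.05 was given to 23 of 133 in miR-145 OLs, 15 of 134 in miR-145+miR-219 OLs against miR-ctl and 4 of 133 between the mimic groups, and DESeq2 called 5, 5 and 0. Over all genes the shares with an unadjusted p under 0.05 were 13.4%, 6.19% and 1.47%, and those called by DESeq2 4.2%, 0.687% and 0.0581%. The lists lay near these shares in miR-145 OLs and above them in miR-145+miR-219 OLs against miR-ctl. Between the mimic groups they lay above the share with an unadjusted p under 0.05, with 4 genes, and DESeq2 called 0. The lists were chosen with earlier results of these data known, so nothing is read from these shares. Of the 24 NF-kB genes, 4 had an unadjusted p under 0.05 in miR-145 OLs and 5 in miR-145+miR-219 OLs against miR-ctl. Birc3 was at a mean of 1.7 CPM in miR-145 OLs against 5.51 CPM in miR-ctl OLs (log2 fold change -1.69, SE 0.396, edgeR adjusted p = 0.192) and at 1.34 CPM in miR-145+miR-219 OLs (-2.03, SE 0.4, edgeR adjusted p = 0.8). Mmp9 was at a mean of 1.12 CPM in miR-ctl OLs, 0.0414 CPM in miR-145 OLs (edgeR adjusted p = 0.158) and 0 CPM in both miR-145+miR-219 libraries (edgeR adjusted p = 0.789). Prdx6, a peroxide-removing enzyme, was at 144 CPM in miR-ctl OLs and had the higher value of 346 CPM in miR-145 OLs (edgeR adjusted p = 0.164).

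Each gene's profile over the 10 libraries, as log2(CPM + 0.5) centred on the gene's mean, was compared with others by the root mean square difference. Only genes with a symbol in the deposited gene table and 5 or more counts in 2 or more libraries were candidates. The nearest to Acod1 were Tnip3 (0.24), a binding partner of A20, and the interferon-induced genes Rsad2 (0.47) and Isg15 (0.51). Tnip3 went from 33.4 and 30.9 CPM in anti-miR-ctl OPCs to 1.16 and 0.805 CPM in anti-miR-145 OPCs and at most 0.092 CPM in OLs. The nearest to Plek was Slc11a1 (0.11), the metal transporter of phagosomes, followed by Bst2 (0.42) and Lgals9 (0.46). Within the OL groups Slc11a1 was at 3.42 and 10.2 CPM in miR-145 OLs against 3.16 and 2.58 CPM in miR-ctl OLs.

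Nos2 was nearest to the cytokine gene Il1a (0.33) and the myeloid receptors Trem3 (0.40) and Trem1 (0.41), and Ptgs2 to Nfkbiz (0.34), the intracellular sensor Nod2 (0.49) and the transcription factor Batf (0.53). Sod2 was nearest to the purine receptor P2ry2 (0.16), Ac1576 (0.20) and Rab11fip1 (0.24). Lcn2 had no close partner among the candidates: the nearest, Fam129a, was at 1.65, followed by the interferon-induced Ifitm3 (1.74) and Sgms2 (1.75). Fam129a was at 18.5 and 22 CPM in miR-ctl OLs, 6.61 and 13.3 CPM in miR-145 OLs, 4.11 and 3.78 CPM in anti-miR-ctl OPCs and 0.93 and 1.06 CPM in anti-miR-145 OPCs, the same order of these 4 groups as for Lcn2 over a narrower range. The order differed in miR-145+miR-219 OLs. There the mean of Fam129a, 9.14 CPM, lay above the 3.94 CPM of anti-miR-ctl OPCs. That of Lcn2, 18.4 CPM, lay below the 30.7 CPM of anti-miR-ctl OPCs. These are descriptions over libraries that share groups, and the pseudocount pulls genes of low counts together.

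**Figure D5:**
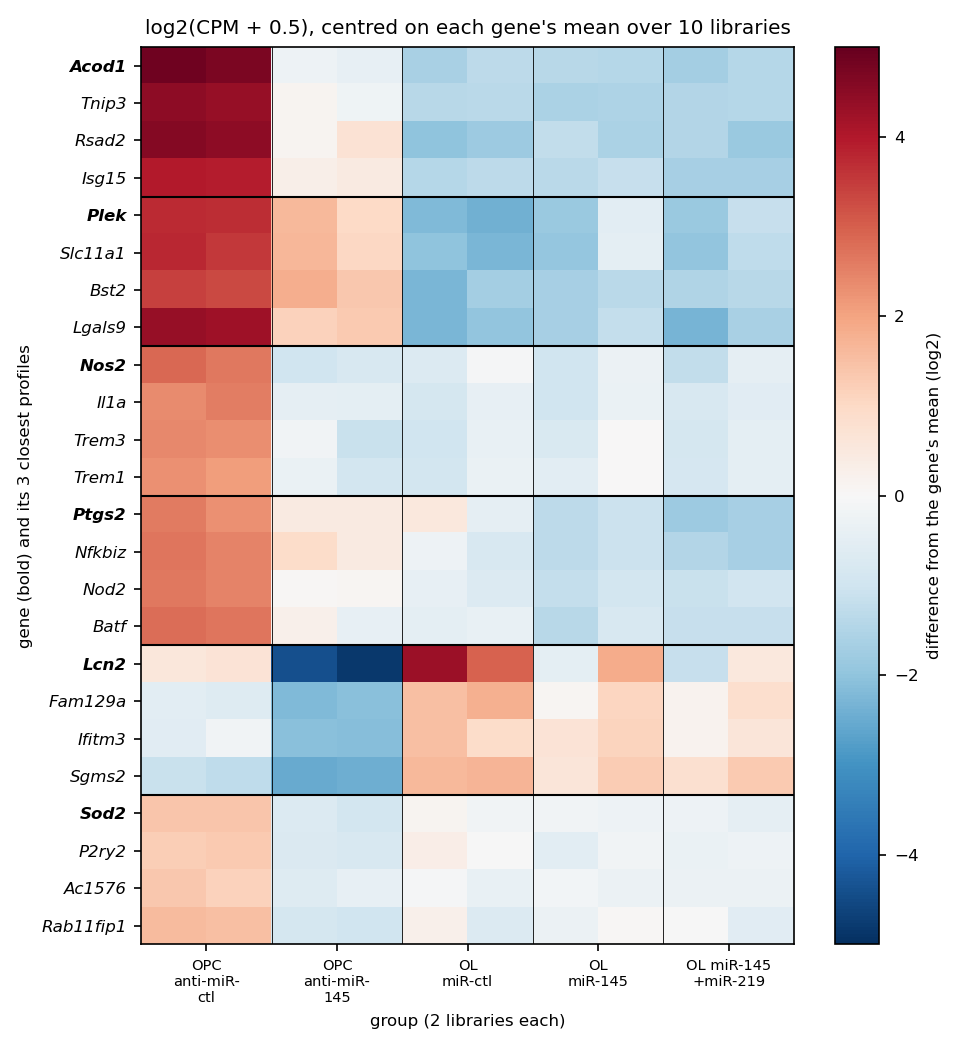
Centred log2(CPM + 0.5) of each of the 6 genes (bold) and its 3 closest profiles (rows) in the 10 libraries (columns, by group), from blue (below the gene's mean) to red (above). The anti-miR-ctl OPC columns are red for Acod1, Plek, Nos2, Ptgs2 and Sod2 and their neighbours, while in the Lcn2 row the miR-ctl OL columns are the reddest and the anti-miR-145 OPC columns the bluest.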

How the data were processed

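The authors assigned reads to GENCODE Rnor6.0 transcripts with Salmon 0.12.0 and deposited estimated counts per gene, loaded with tximport and not normalized, for 23487 genes. Estimated counts were rounded to whole numbers (16% to 17.5% of a library's values were not whole). The authors' DESeq2 table was used for gene symbols only, and its fold changes and p-values were not used. The strand setting of the counting is not given in the sources used here. For miR-145 overexpression and its control, the paper's RNA sequencing methods name lentivirus, whereas its results and the labels name mimics. The mimics are followed here, and the conflict could not be settled.

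The 5 comparisons were fitted separately, on the 4 libraries concerned, with edgeR 4.0.16 in R 4.3.3 (TMM, quasi-likelihood test). Genes needed 5 or more counts in 2 or more of those libraries, and a call means an adjusted p (Benjamini-Hochberg, over all genes tested) under 0.05. SE is the log2 fold change divided by the root of the F statistic. The functions were tested on simulated data. Depth mainly limits genes of few counts, whereas the small number of libraries limits the precision throughout.

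The 6 genes, the functional lists and the marker lists were chosen with earlier results of these data known. Besides the 6, genes were named as the 3 closest profiles of each and, in each list and comparison, among up to 2 called genes with the smallest p in each direction or otherwise the gene with the smallest p. Marker genes named beside their lists were chosen after their values were seen. Alternatives were DESeq2 1.42.0, DESeq2's size factors, no filter, at least 10 counts, all 5 groups in 1 fit, a replicate block, each library left out, and another pseudocount or group means for profiles. Python 3.11.15, numpy 2.4.6, pandas 2.3.3 and matplotlib 3.10.9 were used. Promoters came from RefSeq for GRCr8, not from the build of the counts.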

Additional observations from a re-analysis of the deposited data

How the results depend on the processing

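No source says that a replicate number marks a shared culture or day across groups, so the numbers were not taken as pairs. With the number as a replicate block, 3 of the 5 genes were called in miR-145 OLs against miR-ctl OLs (Plek, Ptgs2 and Lcn2), 0 in miR-145+miR-219 against miR-ctl and 1 in miR-145+miR-219 against miR-145 OLs (Lcn2), and 2272, 132 and 184 of all genes, where edgeR without the block called 0. Deviations of libraries with the same number correlated at 0.354, 0.396 and 0.567 in these comparisons, at -0.111 between the OPC groups and at 0.0522 between the stages. DESeq2 called 649, 106 and 9 genes in the OL comparisons, with 2 of the 6 genes in the second (Ptgs2 and Lcn2). All 5 groups in 1 fit gave 79 calls for miR-145 OLs and 2657 in OPCs (4348 on their own 4 libraries), and no filter gave 1 for miR-145+miR-219 against miR-ctl. The cause of these differences was not tested. With each library left out, all-gene calls ran from 2348 to 7133 in OPCs (2348 without anti-miR-ctl replicate 1, 2407 without replicate 2, 7133 without anti-miR-145 replicate 2) and from 4780 to 10306 between stages (4842 and 4780 without anti-miR-ctl replicate 1 and 2), the lone library being assumed to vary like those of the other group. Between stages Nos2, Ptgs2, Lcn2 and Sod2 were called under every alternative. Of 190 alternative fold changes of the 6 genes, leaving out the OPC comparison and Acod1 and Plek between stages, 178 kept direction and side of the threshold, 6 passed it newly and 6 turned, all 6 with a library left out in OLs: Nos2 in miR-145 OLs ranged from -1.44 to 0.185, and in miR-145+miR-219 against miR-145 OLs Nos2 from -1.79 to 0.536, Plek from -1.05 to 0.457 and Lcn2 from -2.36 to 0.417. Of the 18 closest profiles, 13 were shared with log2(CPM + 1) and 11 with 5 group means. Depth limits Acod1 in OLs, with 0 to 5 counts.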
